A study of Mus musculus with 4 samples.

Results

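A set of 62 autosomal genes was almost uncounted in both Ezh2 f/f libraries and counted in both Ezh2 cKO libraries. They were chosen from the deposited read counts, as genes with at most 3 reads in each Ezh2 f/f library and at least 20 in each Ezh2 cKO library. The table held 29224 genes, of which 28236 lie on autosomes. Of 64 genes that met the thresholds, Asb11, which lies on the X chromosome (2 and 0 reads in Ezh2 f/f against 37 and 37 in Ezh2 cKO), and Vip, the gene of a neuropeptide of cortical interneurons (3 and 2 against 265 and 220), were set aside. The members make up 0.442% of the 14027 autosomal genes with at least 20 reads in both Ezh2 cKO libraries. The mirrored rule, with the groups exchanged, was met by 60 autosomal genes. Because the counts of all 4 libraries chose the members, their difference between the groups is given as a description and carries no test.

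RNA was sequenced from astrocytes of the P5 mouse cerebral cortex, which were isolated with magnetic beads carrying an antibody to GLAST, a glutamate transporter of the astrocyte surface. There were 2 libraries from Ezh2 f/f mice, whose Ezh2 alleles are floxed, and 2 from Ezh2 cKO mice, in which Cre under the control of Aldh1l1 deletes the floxed gene in the cells that express it. Both groups therefore carry floxed Ezh2 alleles, and the sources used here do not say whether the Ezh2 f/f mice carried Cre, or whether each library came from 1 animal or from several. The p-values below measure only the spread between these libraries.

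EZH2 is the catalytic subunit of Polycomb repressive complex 2, which methylates histone H3 at lysine 27 and is known for keeping genes of other cell types and of other stages silent. Long non-coding RNAs (lncRNAs) are transcripts without a long reading frame, and many of them are known for low levels and for expression in few cell types. The libraries are of bulk RNA, in which fewer cells of a type and less RNA per cell cannot be told apart.

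Ezh2 itself had 434 and 327 reads in Ezh2 f/f against 211 and 164 in Ezh2 cKO. It was lower in Ezh2 cKO by the edgeR test (log2 fold change -1.11 ± 0.16, adjusted p = 3.27e-05). The value after ± beside a log2 fold change is an approximate standard error. It is the size of the fold change divided by the square root of the test's F statistic. At low counts it can be narrower than the counting error. Total counts per library were between 16273308 and 17522152. By Xist and the Y-linked genes, replicate 1 of each group carried Y-linked reads and replicate 2 of each group carried Xist reads, and the groups shared this pattern. At this depth 3 reads, which a count of 0 still allows, corresponded to 0.170 to 0.191 CPM, the unit of reads divided by library size after TMM adjustment. Intervals and limits here cover counting error only. Most tested genes differed between the groups. Of 16793 genes, 34.7% had higher counts in Ezh2 cKO and 33.6% had lower ones, by an adjusted p under 0.05. Counting only changes of 2-fold or more, the shares were 19.0% and 14.0%. All 62 members passed the filter on low counts and all were called higher, which the rule itself brings about.

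Promoter sequences are shown for the 4 members with the highest CPM among those with a RefSeq window, and for the members with the fewest and the most CpG dinucleotides, to show the range of CpG content, a feature that the rule did not use. Each is written 5′ to 3′ on the gene's strand, from 250 bases before the annotated start to 50 bases after it, on GRCm38.p6, with CpG dinucleotides in capitals. A830009L08Rik lies at chr13:91388036-91388335 on the minus strand, Susd5 at chr9:114057104-114057403 on the plus strand, Gm3693 at chr12:81228034-81228333 on the plus strand and Nabp1 at chr1:51478350-51478649 on the minus strand. Celrr lies at chr1:121087155-121087454 on the plus strand and Gm13205 at chr4:148952273-148952572 on the minus strand.
A830009L08Rik: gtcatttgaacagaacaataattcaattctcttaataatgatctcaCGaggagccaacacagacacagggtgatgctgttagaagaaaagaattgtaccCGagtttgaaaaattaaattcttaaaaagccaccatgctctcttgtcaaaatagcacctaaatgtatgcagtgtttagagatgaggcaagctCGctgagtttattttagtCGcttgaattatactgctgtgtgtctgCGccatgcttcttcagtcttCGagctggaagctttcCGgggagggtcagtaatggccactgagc
Susd5: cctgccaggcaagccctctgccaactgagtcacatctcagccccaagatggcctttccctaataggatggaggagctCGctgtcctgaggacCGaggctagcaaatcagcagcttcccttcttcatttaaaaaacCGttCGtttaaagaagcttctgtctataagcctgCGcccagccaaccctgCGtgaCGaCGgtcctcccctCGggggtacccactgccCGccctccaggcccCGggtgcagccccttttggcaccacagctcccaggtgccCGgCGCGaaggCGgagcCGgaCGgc
Gm3693: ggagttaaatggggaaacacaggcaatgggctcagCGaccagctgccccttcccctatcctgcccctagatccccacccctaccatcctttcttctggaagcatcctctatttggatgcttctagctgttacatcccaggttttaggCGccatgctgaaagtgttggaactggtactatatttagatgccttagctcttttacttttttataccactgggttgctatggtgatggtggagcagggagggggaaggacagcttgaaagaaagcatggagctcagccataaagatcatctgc
Nabp1: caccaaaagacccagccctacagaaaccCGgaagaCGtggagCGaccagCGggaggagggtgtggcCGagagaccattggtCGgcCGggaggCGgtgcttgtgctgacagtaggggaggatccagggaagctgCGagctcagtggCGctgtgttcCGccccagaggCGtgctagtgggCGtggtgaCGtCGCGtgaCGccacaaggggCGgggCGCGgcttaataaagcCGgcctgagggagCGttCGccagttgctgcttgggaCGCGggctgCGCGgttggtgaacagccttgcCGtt
Celrr: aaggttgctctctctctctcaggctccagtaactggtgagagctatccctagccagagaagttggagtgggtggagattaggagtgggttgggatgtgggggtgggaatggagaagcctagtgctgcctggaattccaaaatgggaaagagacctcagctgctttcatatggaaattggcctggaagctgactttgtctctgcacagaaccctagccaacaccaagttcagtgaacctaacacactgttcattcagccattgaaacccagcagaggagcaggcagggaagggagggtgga
Gm13205: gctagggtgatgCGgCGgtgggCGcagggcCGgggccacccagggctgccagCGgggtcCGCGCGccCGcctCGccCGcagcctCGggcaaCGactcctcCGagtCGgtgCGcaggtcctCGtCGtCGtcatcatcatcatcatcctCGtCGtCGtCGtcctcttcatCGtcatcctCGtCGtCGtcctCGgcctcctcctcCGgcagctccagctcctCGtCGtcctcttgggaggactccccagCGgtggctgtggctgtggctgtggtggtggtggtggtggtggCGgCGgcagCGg

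Of the 62 members, 42 had a promoter window in RefSeq, and their windows held between 0 and 35 CpG, with a median of 6. A total of 12 windows (28.6%) held at least 10 CpG. Among all autosomal genes with a window this share was 64.4%, and among the 4007 whose mean CPM in Ezh2 cKO lay in the members' range, members included, it was 70.8%, with a median of 17 CpG. The contrast was found within each biotype. Of the lncRNA members 20% reached 10 CpG, against 63.9% of the 316 lncRNAs in that CPM range. Of the protein-coding members 41.2% did, against 71.5% of 3673. The range ran from 1.20 to 15.5 CPM with a median of 2.06 for all members, and levels within it were not matched. The genes of the mirrored rule had similar windows, with 9 of 30 (30%) at 10 CpG or more and a median of 7. A CpG-poor window was therefore not particular to the genes counted in Ezh2 cKO.

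**Figure D1:**
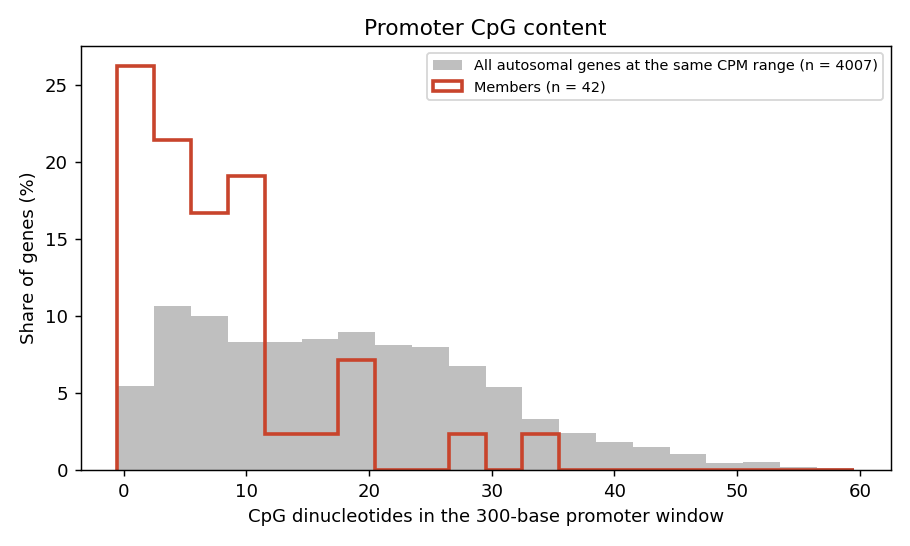
Number of CpG dinucleotides in the 300-base promoter window (x axis) against the share of genes in percent (y axis), for 42 members (red outline) and for the 4007 autosomal genes with the same range of mean CPM in Ezh2 cKO (grey). The members gather at the left, with a median of 6 against 17.

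The printed windows span this range. Susd5 had 17 CpG, Nabp1 28 and Gm13205 35, whereas A830009L08Rik had 7, Gm3693 had 2 and Celrr had 0. A TATA box sequence, searched as TATAAA on both strands, stood in 8 windows (19.0%), including that of Gm3693, against 8.26% of genes in the members' CPM range. The GC box GGGCGG, on either strand, stood in 7 (16.7%), including Susd5 and Nabp1, against 56.9%. The palindromic cAMP response element TGACGTCA was found in 1 window, that of 4933417D19Rik (2.38%), against 2.87%. These are matches of letters in a window and say nothing of a factor's binding. For genes with several annotated starts the first listed window was used, which concerned 3 members.

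By biotype the members were lncRNAs about as often as protein-coding genes. By the deposited annotation, 31 (50%) were lncRNAs and 28 (45.2%) protein-coding genes. The others were the processed pseudogene Gm14267, the unclassified transcript Gm10118 and Ighd, an immunoglobulin constant-region gene. lncRNAs made up 4.18% of autosomal genes with at least 20 reads in both Ezh2 cKO libraries, 9.66% of those in the members' CPM range and 14 of 60 genes (23.3%) of the mirrored rule. Put the other way, 5.29% of the 586 lncRNAs with at least 20 reads in both Ezh2 cKO libraries were members, against 0.217% of the 12915 protein-coding genes. All 31 lncRNA members had at least 2 exons in a transcript of GENCODE M21, and their longest spliced forms had a median of 1918 bases.

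Near absence in Ezh2 f/f was not absence for most members. Only 7 were at 0 in both Ezh2 f/f libraries, 18 were at 0 or 1 in both, and 31 had a pooled Ezh2 f/f count of 4 to 6. The 62 genes together took 85 and 105 reads in Ezh2 f/f but 2888 and 2900 in Ezh2 cKO, which is 0.0167% and 0.0174% of all Ezh2 cKO reads. For the 55 members with at least 1 Ezh2 f/f read, the ratio of the pooled levels ran from 8.63 to 206 with a median of 21. The 7 at 0 were at least 14.1-fold to at least 36.6-fold higher in Ezh2 cKO, with 3 reads over the group as the floor.

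**Figure D2:**
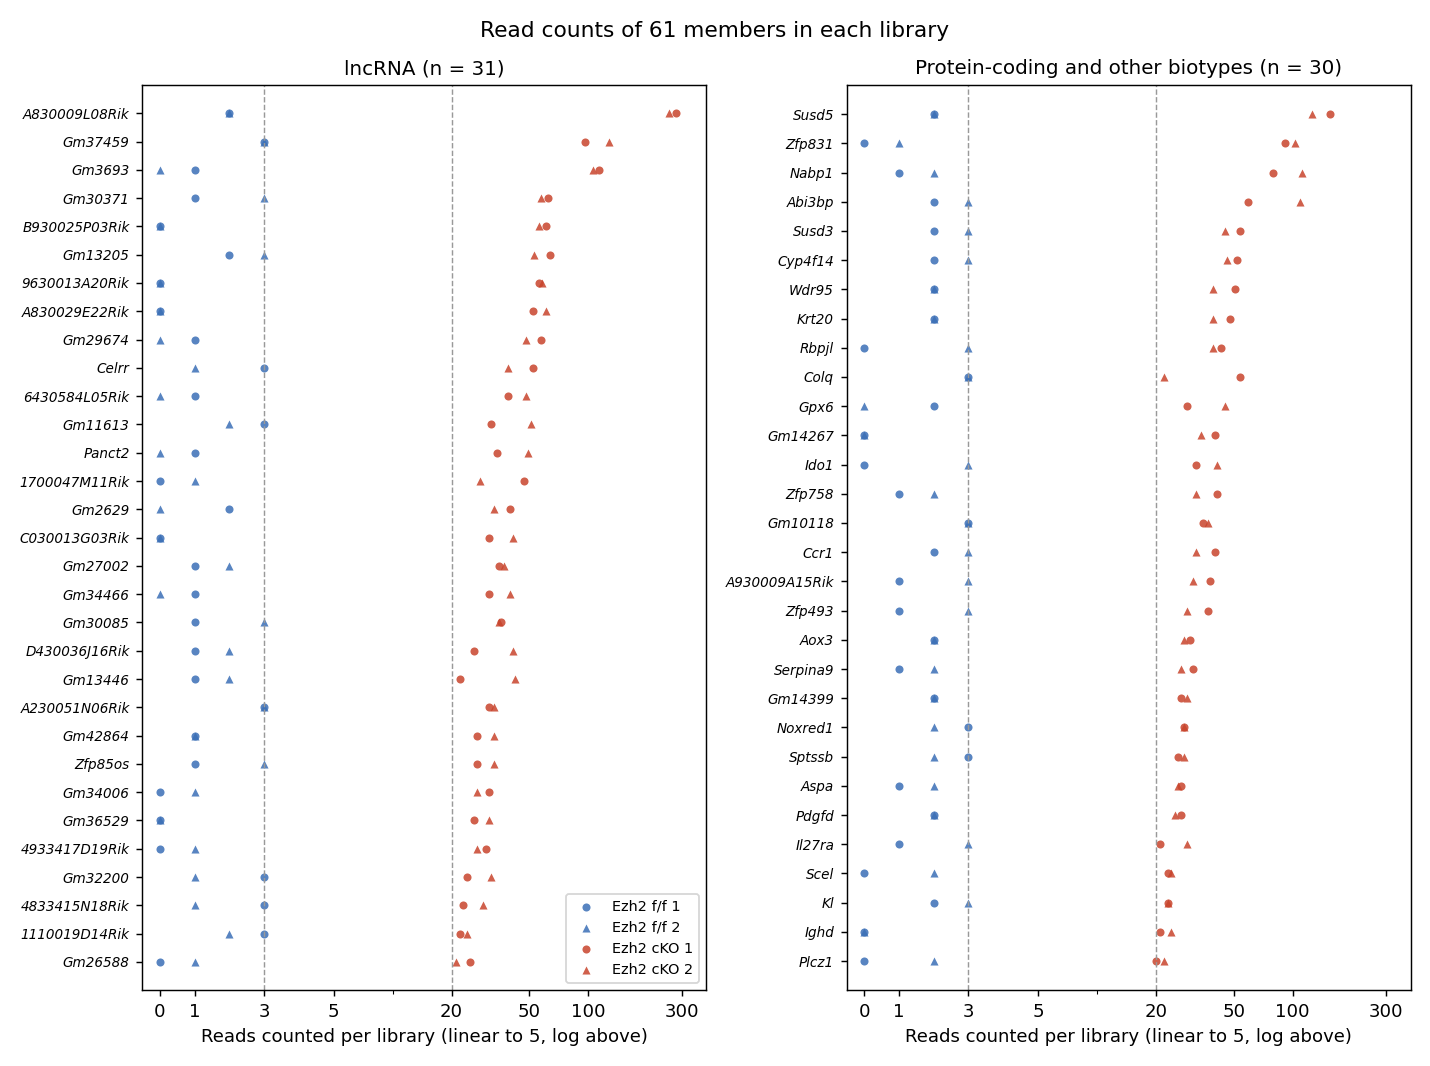
Reads counted in each library (x axis, linear to 5 and logarithmic above) for 61 of the 62 members (y axis), lncRNAs on the left and other biotypes on the right, with Ezh2 f/f in blue and Ezh2 cKO in red and the replicates as circles and triangles. The dashed lines mark the 3 and 20 reads of the rule, and the 2 red symbols of a gene mostly lie close together, while those of Colq and Abi3bp lie apart.

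In the Ezh2 cKO libraries the members stayed at low levels. The mean CPM ran from 1.20 to 15.5 with a median of 2.06, and only 12 members had at least 50 reads in both libraries and 3 at least 100. Per length, the mean FPKM had a median of 0.795, against 5.25 for autosomal genes with at least 20 reads in both Ezh2 cKO libraries. By this scale Gm13205 (6.11 FPKM) and A830009L08Rik (5.66) stood highest and Kl (0.145) lowest, and lncRNA members had a higher median (1.20 FPKM) than protein-coding ones (0.653). The CPM of the Ezh2 cKO libraries lay within 1.5-fold of each other for 54 of the 62 members (87.1%), and for 90.3% of the 5806 autosomal genes whose mean Ezh2 cKO CPM lay in the range of the members. The lower limit that the rule set on both libraries acts on the first of these shares. The 95% Poisson intervals of the libraries did not overlap for 3 members, among them Colq (54 and 22 reads) and Abi3bp (59 and 109). The share of other genes with intervals apart is not given.

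The lncRNA with the most reads was A830009L08Rik, with 2 and 2 reads in Ezh2 f/f against 282 and 259 in Ezh2 cKO (15.5 ± 0.739 CPM, SD, n = 2). The pooled ratio was 127 (95% interval 49.3 to 467 by the conditional exact method, which covers counting error only). Gm37459 had 3 and 3 against 96 and 127 reads, and Gm3693 had 1 and 0 against 114 and 106, which gave the highest pooled ratio of all members, 206. Gm30371 had 1 and 3 against 62 and 57, Gm13205 had 2 and 3 against 64 and 53, and Gm29674 had 1 and 0 against 57 and 48. The remaining 25 lncRNAs had 21 to 61 reads in an Ezh2 cKO library, among them Celrr, named as a cerebellum-expressed regulatory RNA, with 3 and 1 against 52 and 39.

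A count of 0 in both Ezh2 f/f libraries with at least 50 reads in both Ezh2 cKO libraries was seen in 3 lncRNAs. B930025P03Rik had 0 and 0 reads against 61 and 56, 9630013A20Rik had 0 and 0 against 56 and 58, and A830029E22Rik had 0 and 0 against 52 and 61. By the floor of 3 reads, with the Ezh2 cKO count taken as it stood, they were at least 36.6-fold, 35.6-fold and 35.3-fold higher. The other 4 members at 0 in both Ezh2 f/f libraries had fewer reads. Gm14267 had 40 and 34, C030013G03Rik 31 and 41, Gm36529 26 and 31, and Ighd 21 and 24. Gm14267 is a processed pseudogene related to Ppia, a cyclophilin gene with 18710 and 19237 reads in Ezh2 f/f against 27875 and 25159 in Ezh2 cKO, so its reads may be assigned to either copy and its value is uncertain.

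Among genes that act on DNA, Zfp831, a zinc finger gene, had 0 and 1 reads in Ezh2 f/f against 91 and 103 in Ezh2 cKO (pooled ratio 182, 95% interval 32.3 to 7225). Nabp1, a single-stranded DNA binding protein of the SOSS repair complex, had 1 and 2 against 79 and 112. Its paralog Nabp2 was lower in Ezh2 cKO (log2 fold change -0.51 ± 0.11, edgeR adjusted p = 0.000866) and Ints3 was higher (0.90 ± 0.09, edgeR adjusted p = 1.09e-06). Rbpjl, a relative of the Notch effector Rbpj known from pancreatic acinar cells, had 0 and 3 against 43 and 39.

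A group of 3 members encode zinc finger proteins of large families with near-identical copies. Zfp758 had 1 and 2 reads against 41 and 32, Zfp493 had 1 and 3 against 37 and 29, and Gm14399 had 2 and 2 against 27 and 29. Since reads can be split among copies, these values are uncertain. Around Zfp493 on chromosome 13, of 15 tested non-member genes of the zinc finger family within 500 kb, 8 were called higher and 1 lower, where 34.7% of all tested genes were higher. Gm10037 showed the largest change (log2 fold change 3.05 ± 0.37, edgeR adjusted p = 4.99e-06), and Zfp87 was the gene that was lower (-0.58 ± 0.16, edgeR adjusted p = 0.00647). Around Zfp758 on chromosome 17, 4 of 10 were higher and 0 lower, and around Gm14399 on chromosome 2, 1 of 2 was higher.

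Genes of secreted, matrix and surface proteins were led by Susd5, which encodes a sushi domain protein and had 2 and 2 reads in Ezh2 f/f against 155 and 125 in Ezh2 cKO (7.99 ± 1.11 CPM in Ezh2 cKO, SD, n = 2, pooled ratio 65.7). Its relative Susd3 had 2 and 3 against 54 and 45, and Abi3bp, a matrix protein, had 2 and 3 against 59 and 109. Colq, the collagen tail that anchors acetylcholinesterase at synapses, had 3 and 3 against 54 and 22. Ache, the enzyme itself, was well counted in both groups and was higher in Ezh2 cKO (741 and 1110 against 2595 and 2371 reads, log2 fold change 1.32 ± 0.16, edgeR adjusted p = 6.32e-06). Pdgfd, a ligand of the receptor PDGFRB, had 2 and 2 against 27 and 25, and Pdgfrb was lower in Ezh2 cKO (log2 fold change -0.55 ± 0.10, edgeR adjusted p = 0.000223). Of the other ligand genes of the family, Pdgfb (1.83 ± 0.11, edgeR adjusted p = 4.16e-09) and Pdgfa (0.26 ± 0.11, edgeR adjusted p = 0.0416) were higher and Pdgfc did not pass (-0.27 ± 0.21, edgeR adjusted p = 0.265). The receptor gene Pdgfra was higher (0.90 ± 0.09, edgeR adjusted p = 8.47e-07). Kl, the FGF23 co-receptor Klotho, had 2 and 3 against 23 and 23.

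The immune genes were counted in small numbers. Ccr1, a chemokine receptor gene of leukocytes and microglia, had 2 and 3 reads against 40 and 32. Among related receptor genes, Ccr2 had only 3 and 2 and Ccr3 only 2 and 1 reads in Ezh2 cKO, with 0 in both Ezh2 f/f libraries for each, whereas Ccr1l1 (2 and 2 reads in Ezh2 f/f) and Cxcr6 (2 and 0) had 0 in both Ezh2 cKO libraries. Xcr1 had 6 and 3 against 1 and 1, Ccr9 had 4 and 1 against 5 and 0, and Ccrl2 had 25 and 19 against 16 and 6 and did not pass the test (log2 fold change -1.08 ± 0.47, edgeR adjusted p = 0.0553). The ligand gene Ccl3 had 9 and 8 against 10 and 10. Il27ra, a cytokine receptor subunit, had 1 and 3 against 21 and 29, and Serpina9, a serpin of germinal-centre B cells, had 1 and 2 against 31 and 27.

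Ighd encodes the constant region of immunoglobulin D and lies next to Ighm, which was higher in Ezh2 cKO (42 and 46 against 258 and 185 reads, log2 fold change 2.23 ± 0.22, edgeR adjusted p = 8.4e-07). Genes that define B cells had few reads. Ms4a1 had 0 and 0 reads against 0 and 1, the light chain gene Igkc had 0 and 1 against 1 and 0, and Cd79a had 38 and 21 against 20 and 19. Cd79b had 3 and 10 against 17 and 17. Ms4a1 and Igkc were therefore at or near 0 in all 4 libraries, and Cd79a and Cd79b were not.

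Ido1, which starts the breakdown of tryptophan to kynurenine and is known for its induction by interferon, had 0 and 3 reads in Ezh2 f/f against 32 and 41 in Ezh2 cKO. Both of its neighbours on chromosome 8 were higher as well. Ido2, its paralog, had 6 and 5 against 47 and 38 reads (log2 fold change 2.83 ± 0.42, edgeR adjusted p = 4.18e-05), and Adam18, a gene known from testis, had 2 and 0 against 20 and 14 (3.84 ± 0.80, edgeR adjusted p = 0.000681). Tdo2, which catalyses the same first step, was also higher (8 and 3 against 26 and 40, log2 fold change 2.47 ± 0.50, edgeR adjusted p = 0.000542). Of the later enzymes of the route, Kmo had 5 and 5 and Kynu 5 and 3 reads in Ezh2 cKO, with 0 in both Ezh2 f/f libraries for each. Afmid, which acts on the product of the first step, had 24 and 16 against 23 and 7 reads and did not pass the test (log2 fold change -0.50 ± 0.50, edgeR adjusted p = 0.383). Haao had 4 and 6 against 3 and 4.

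A total of 7 members were classed as enzymes. Cyp4f14, a fatty acid hydroxylase of liver, had 2 and 3 reads against 52 and 46. Gpx6, an olfactory glutathione peroxidase, had 2 and 0 against 29 and 45. Aox3, an aldehyde oxidase of liver, had 2 and 2 against 30 and 28, and its neighbour and paralog Aox4 was higher in Ezh2 cKO (22 and 19 against 146 and 48, log2 fold change 2.14 ± 0.44, edgeR adjusted p = 0.00063). Within this group Noxred1, an oxidoreductase, had 3 and 2 against 28 and 28, and Plcz1, the sperm phospholipase that activates the egg, was nearest the lower limit with 0 and 2 against 20 and 22. Sptssb, a small subunit of serine palmitoyltransferase, had 3 and 2 against 26 and 28. Sptlc2, a catalytic subunit of that enzyme, was higher (log2 fold change 1.03 ± 0.10, edgeR adjusted p = 6.41e-07). The other catalytic subunit, Sptlc1, was lower (-0.29 ± 0.12, edgeR adjusted p = 0.0377), and Sptssa, the paralog of Sptssb, did not pass (0.10 ± 0.12, edgeR adjusted p = 0.473).

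Aspa, which cleaves N-acetylaspartate in oligodendrocytes, had 1 and 2 reads against 27 and 26. Structural proteins of epithelia were also present. Krt20, a keratin of the intestinal lining, had 2 and 2 against 48 and 39, and Scel, of the cornified envelope, had 0 and 2 against 23 and 24. The lncRNA A830036E02Rik, 2.91 kb from Krt20 on the other strand, was higher in Ezh2 cKO at a larger count (52 and 48 against 572 and 528, log2 fold change 3.36 ± 0.16, edgeR adjusted p = 7.48e-10). Wdr95 had 2 and 2 against 51 and 39, and A930009A15Rik had 1 and 3 against 38 and 31, and no role is given for either. The unclassified transcript Gm10118 had 3 and 3 against 35 and 37.

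The thresholds passed through a continuous range of counts. The members nearest the lower limit in Ezh2 cKO were Plcz1, Gm26588 (0 and 1 against 25 and 21), Ighd, Il27ra and Colq. Just outside it stood Capn12 (2 and 3 against 33 and 19), Wnt2 (3 and 2 against 28 and 19), 2210408F21Rik (0 and 2 against 22 and 19), Gm13601 (2 and 2 against 19 and 26) and Slc36a2 (1 and 1 against 32 and 18). Just above the limit in Ezh2 f/f stood Plb1 (4 and 3 against 114 and 84), Ovol2 (4 and 1 against 56 and 60), 2310040G24Rik (4 and 4 against 61 and 54), Slc17a8 (4 and 4 against 46 and 68) and Sowahb (4 and 3 against 36 and 47). Among genes that met the limit in Ezh2 f/f, 37 had a lower Ezh2 cKO count of 15 to 19. Among those that met the limit in Ezh2 cKO, 20 had a higher Ezh2 f/f count of 4.

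The members lay on 17 of the autosomes, with 7 on chromosome 13 and none on chromosomes 7 and 19. The shares of all genes on these chromosomes are not given, so the counts are a description only. Only 3 pairs of members were within 500 kb of each other, among them Zfp85os and Zfp493, and Zfp831 and Gm14399. What lay beside the members was examined next. The rule used no count of a neighbouring gene, but a gene that overlaps a member may share reads with it. The nearest non-member on each side, and any gene that overlapped a member, gave 146 genes. Distance had no limit, and St8sia4, for example, lies 1204 kb from Panct2. A total of 86 passed the filter on low counts. Of these, 26 (30.2%) were called higher by 2-fold or more and 4 (4.65%) lower by 2-fold or more, against 19.0% and 14.0% of all tested genes. Without the limit on fold, 39 (45.3%) were higher and 23 (26.7%) lower. Their median log2 fold change was 0.25, and that of all tested genes 0.02. A total of 18 tested genes overlap a member and 68 do not. Of the overlapping genes, 10 (55.6%) were at least 2-fold higher and 0 at least 2-fold lower. Of those that do not overlap, 16 (23.5%) were at least 2-fold higher and 4 (5.88%) at least 2-fold lower, and their median log2 fold change was 0.13. Of the 54 members with a tested neighbour, 23 had a neighbour at least 2-fold higher and 4 had a neighbour at least 2-fold lower. A member can have several tested neighbours, so the shares among all tested genes cannot be set beside these counts. The same counts for genes that are no members are not given, so they are a description only.

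**Figure D3:**
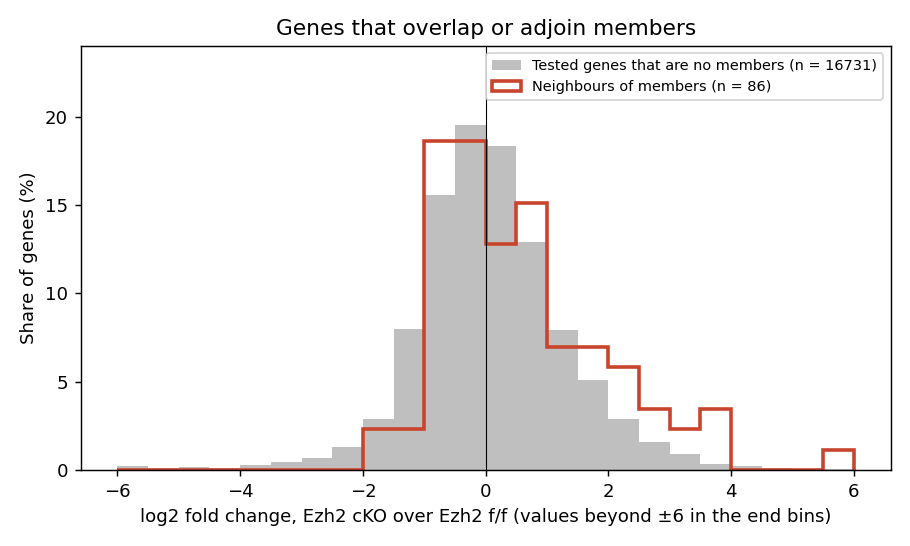
Log2 fold change of Ezh2 cKO over Ezh2 f/f in the edgeR fit (x axis) against the share of genes in percent (y axis). The red outline shows 86 tested genes that overlap a member or are its nearest non-member on a side, at any distance. Grey shows all tested genes that are no members. The neighbours extend farther to the right, with a median of 0.25, and few lie below -1.

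A total of 22 members, of which 16 were lncRNAs, shared ground with a gene that is no member, and 20 of these shared it on the opposite strand. The share of all genes with such an overlap is not given, so whether members overlap more often than other genes was not tested. Of the 17 opposite-strand partners tested, 10 (58.8%) were at least 2-fold higher in Ezh2 cKO. How strand was used in counting is not given in the sources used here, so the reads of a member and of its partner cannot be told apart. The largest change of a partner was that of Slco4c1, a transporter gene that overlaps Panct2 (0 and 4 against 34 and 35 reads, log2 fold change 3.93 ± 0.65, edgeR adjusted p = 0.000103). Panct2 itself had 1 and 0 against 34 and 49. Only A830009L08Rik and Gm27002 overlapped a gene on their own strand. For A830009L08Rik it was Gm29540, with at most 3 reads in any library, and for Gm27002, with 1 and 2 against 35 and 37 reads, it was Osbpl10 (345 and 329 against 710 and 713, edgeR adjusted p = 2.45e-06).

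Other partners were counted far above the member. Spata2l overlaps 4933417D19Rik and had 160 and 148 against 1640 and 1515 reads (log2 fold change 3.26 ± 0.11, edgeR adjusted p = 4.2e-11), whereas the member had 0 and 1 against 30 and 27. Vps9d1, which overlaps the same lncRNA, was lower (-0.63 ± 0.10, edgeR adjusted p = 4.62e-05). Mgll, the lipase that degrades an endocannabinoid, overlaps Gm26588 and had 500 and 513 against 3291 and 2975 reads (2.53 ± 0.10, edgeR adjusted p = 2.39e-10). The transporter gene Slc22a3 overlaps C030013G03Rik and had 39 and 32 against 173 and 219 (2.37 ± 0.23, edgeR adjusted p = 5.07e-07). Here the member was at 0 in both Ezh2 f/f libraries and its partner was not.

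The zinc finger gene Casz1, which overlaps Gm13205, was higher as well (58 and 46 against 305 and 218 reads, log2 fold change 2.24 ± 0.21, edgeR adjusted p = 5.06e-07), as was the matrilin gene Matn4, which overlaps Rbpjl (2.17 ± 0.14, edgeR adjusted p = 1.06e-08). Sdc4 and Slpi, on either side of Rbpjl, were also called, with log2 fold changes of 1.58 and 1.88. Palm3 with Il27ra (1.90), the serotonin receptor gene Htr1b with D430036J16Rik (1.83), Adamts16 with Gm36529 (1.43) and Pex5l with Gm37459 (1.11) completed the opposite-strand partners at least 2-fold higher. Among adjoining genes, Fbxl2, 10.9 kb from Susd5, was higher (1.98 ± 0.12, edgeR adjusted p = 6.03e-09), as was Hsph1, a heat shock protein gene 2.39 kb from Wdr95 (1.44 ± 0.09, edgeR adjusted p = 1.1e-08). 1110019D14Rik starts 8 bases from 2610001J05Rik, a gene on the opposite strand that had 342 and 339 against 885 and 848 reads (1.25 ± 0.11, edgeR adjusted p = 1.76e-07).

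For other members the overlapping partner did not move with them. Slc8a3, a sodium-calcium exchanger gene that overlaps Gm3693, had 942 and 973 against 906 and 925 reads and did not pass the test (log2 fold change -0.16 ± 0.10, edgeR adjusted p = 0.151). Pcdh17, a protocadherin gene that overlaps 9630013A20Rik, had 673 and 753 against 762 and 900 (0.12 ± 0.12, edgeR adjusted p = 0.368). Lgr5 with A930009A15Rik (0.33), Scml4 with Gm34006 (-0.26) and Zfp85 with Zfp85os (0.04) also did not pass. Dab2ip, which overlaps Gm13446, was lower in Ezh2 cKO (4884 and 4553 against 2835 and 2364 reads, log2 fold change -0.95 ± 0.10, edgeR adjusted p = 8.72e-07). The 4 neighbours at least 2-fold lower did not overlap their member. They were Aqp1, 48.3 kb from 6430584L05Rik (-1.80), and Gm17029, 11.4 kb from Gm13205 (-1.58). The others were Rps27rt, 218 kb from Gm27002 (-1.33), and Trim27, 117 kb from Gpx6 (-1.30).

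The cell sources of the members were examined through marker lists, from which members were left out. The defining genes of astrocytes were present in all libraries and higher in Ezh2 cKO. Of 16 astrocyte genes, 14 were called higher and 0 lower, with a median log2 fold change of 2.00. Genes of other cells were present too. Camk2a, a kinase of mature excitatory neurons, had 4315 and 3876 reads in Ezh2 f/f against 37672 and 33965 in Ezh2 cKO. Slc1a2, a glutamate transporter gene of astrocytes, had 1112 and 1021 against 17915 and 16955. In the list of late-maturing neuron genes, 13 of 18 were higher and 1, Kcnc1, was lower (median 1.34). The summed level of that list was 1375 to 1386 CPM in Ezh2 f/f but 5760 to 6133 CPM in Ezh2 cKO. RNA of neurons was thus present in both groups, and these genes took a larger share of reads in Ezh2 cKO. The part of other cells in the members' counts was not tested.

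Aspa belongs to the list of myelinating oligodendrocyte genes, and its list moved with it. Of 15 other tested genes, 13 were higher and 0 lower (median log2 fold change 2.23), and their summed level was 99.3 and 111 CPM in Ezh2 f/f but 923 and 803 CPM in Ezh2 cKO. Mbp, a main protein of myelin, had 640 and 682 against 8429 and 6913 reads (3.44 ± 0.12, edgeR adjusted p = 5.09e-11). The list of microglia and macrophage genes held no member. Of its 16 genes, 14 were higher and Cd163 was lower (median 1.30), and Cd163 was not called without replicate 2 of Ezh2 cKO. The summed level of the list was 137 to 138 CPM in Ezh2 f/f but 335 to 397 CPM in Ezh2 cKO. Csf1r, the growth factor receptor of these cells, had 406 and 441 against 1395 and 1112 reads (1.47 ± 0.12, edgeR adjusted p = 1.27e-07). Microglial markers were therefore counted in Ezh2 f/f as well, at a level where Ccr1 had 2 and 3 reads.

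Kl, known from the choroid plexus, went against its list. Of 14 other tested choroid plexus and ependymal genes, 7 were lower in Ezh2 cKO and 3 higher (median log2 fold change -0.93). Without replicate 1 of either group, 1 was higher. Ttr, the main secreted protein of the choroid plexus, had 6326 and 11598 reads in Ezh2 f/f against 5 and 12 in Ezh2 cKO (-10.13 ± 0.39, edgeR adjusted p = 1.37e-10), while Kl had 2 and 3 against 23 and 23.

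Of 44 transcriptional and developmental regulators known as Polycomb targets, 32 had a row in the table and 0 were members, where 0.220% of all autosomal genes are members. Of the list, 15 genes were tested, of which 7 were lower in Ezh2 cKO, 1 was higher and 7 did not pass (median log2 fold change -0.70). The gene called higher was Bmp2 (0.85), and it was not called without replicate 2 of Ezh2 f/f or without either Ezh2 cKO library. Sox1, a neural progenitor factor, had 723 and 737 against 262 and 212 reads (-1.72 ± 0.13, edgeR adjusted p = 4.92e-08), and Eomes, of intermediate progenitors, had 160 and 251 against 13 and 27 (-3.46 ± 0.33, edgeR adjusted p = 5.53e-07).

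**Figure D4:**
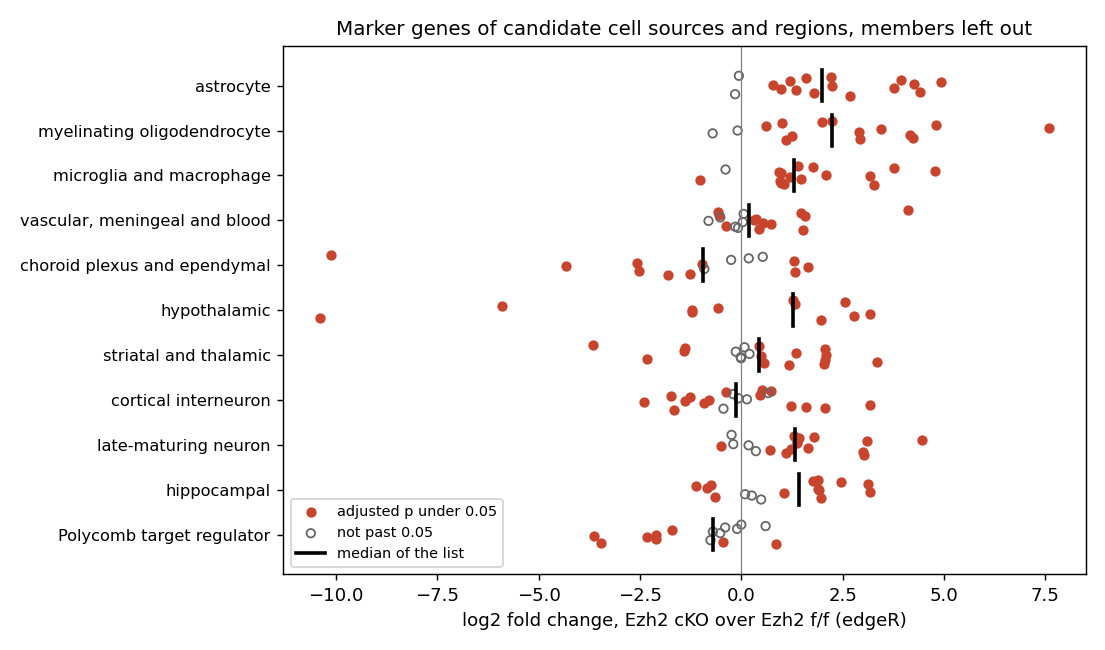
Log2 fold change of Ezh2 cKO over Ezh2 f/f in the edgeR fit (x axis) for the tested genes of 11 marker lists (y axis), with members left out. Filled points passed an adjusted p of 0.05, open points did not, and bars are list medians. Astrocyte, oligodendrocyte, microglia and late-maturing neuron genes lie mostly to the right, with medians of 1.30 to 2.23, and Polycomb targets and choroid plexus genes mostly to the left.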

How the data were processed

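Per the labels, reads of 4 Illumina libraries (2 per group) were processed by the submitters, whose processing notes name Bowtie2 2.2.3, TopHat2 2.0.12, HTSeq 0.6.0 and mm9. The authors deposited whole-number read counts per gene without normalization, and FPKM values scaled to gene length and depth. The authors also deposited their own comparison, with a mean signal, a ratio, its log2 value and p-values, none of which was used. The number of sample columns left out was 0. Of the genes, 28799 had an identifier in GENCODE M21 (GRCm38), and 581 had the same coordinates there, so the deposited coordinates serve here only for chromosome, order and distance. Promoter windows come from RefSeq on GRCm38.p6.

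The members and lists were chosen with earlier results of these data known, and the roles of members and the context genes after their values had been seen. Named members are the 15 with the highest CPM in Ezh2 cKO, those at 0 in both Ezh2 f/f libraries with at least 50 reads in both Ezh2 cKO libraries, those at the thresholds, and up to 5 per role. The values of 1 member and of some list and context genes are not reported here. Named non-members are genes of the same pathway or cluster, neighbours that overlap or were called with at least a 2-fold change, and list genes with the most reads. Other list genes were named after their values were seen.

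Differences were tested with edgeR 4.0.16 (R 4.3.3) by the quasi-likelihood test after filterByExpr and TMM, with the group as the only term, all 4 libraries in the fit and Benjamini-Hochberg adjustment over 16793 genes. With 2 libraries per group no permutation of a single gene can reach 0.05. DESeq2 1.42.0 and limma 3.58.1, on log2(FPKM + 1), were alternatives. Each test was also run on simulated counts, drawn with the same dispersion for all genes, and the outcome of that run is not given here. Total counts were 17522152 and 16273308 for Ezh2 f/f, and 17330230 and 16678309 for Ezh2 cKO. Other steps used Python 3.11.15 with pandas 2.3.3, scipy 1.17.1 and matplotlib 3.10.9.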

Additional observations from a re-analysis of the deposited data

How the results depend on the processing

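The number of members followed the thresholds. It was 18 with at most 1 read in each Ezh2 f/f library, 104 with at most 5, 205 with at least 10 in each Ezh2 cKO library and 12 with at least 50. With counts scaled to a common library size 43 genes passed, and all 43 are members. Leaving out a library and applying the rule to the other 3 gave 85 to 111 genes: 106 and 111 without replicate 1 or 2 of Ezh2 f/f, and 85 and 101 without replicate 1 or 2 of Ezh2 cKO. With fewer conditions to meet, more genes pass.

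Of 269 alternative values, 240 kept their direction and stayed within 1.5 times the value given. These include all counts over the neighbours and over all genes. Among lists, by DESeq2 the choroid plexus genes called higher fell to 1, the hypothalamic genes lower to 3 and the Polycomb targets higher to 0. By limma, hippocampal genes higher were 5 and Polycomb targets higher 0. With a mean of at least 50 counts, fewer genes were tested: choroid plexus higher 1, hippocampal higher 3, hypothalamic higher 3 and lower 2, microglia lower 0 and Polycomb targets higher 0. Without 1 library in turn, the ranges were 0 to 1 for Polycomb targets higher, 1 to 4 for choroid plexus higher, 3 to 5 for hypothalamic lower, 1 to 2 for late-maturing neuron lower, 0 to 1 for microglia lower, and 5 to 9 and 1 to 5 for vascular genes higher and lower. The cause of these changes was not tested.

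The labels tie replicates of the same number by nothing but the number, although the libraries with the same number share the same Xist and Y-linked pattern. Over 16202 autosomal genes the difference of replicate 1 and 2 in one group correlated with that in the other with r = 0.0253. With the replicate block, 5796 genes were higher and 5599 lower, against 5831 and 5650 without it, and 39 and 23 neighbours were higher and lower, as without it. Depth limits the members, since a count of 0 allows up to 3 reads, and 31 members had 4 to 6 pooled Ezh2 f/f reads.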

Other observations

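Lists of brain regions and vessels showed mixed directions and held no member. Of 11 tested hypothalamic genes, 6 were higher in Ezh2 cKO and 5 lower, the latter being Nts, Avp, Otp, Gal and Gnrh1 (median log2 fold change of the list 1.29). Striatal and thalamic genes split in the same manner, with 10 of 19 higher and 4 lower (median 0.43). The genes lower were Tcf7l2, Rgs16, Six3 and Isl1, which mark thalamus and early striatal cells, and dopamine receptor genes such as Drd1 were among those higher. Hippocampal genes had 9 of 16 higher and 4, among them Mpped1, Neurod6 and Prox1, lower (median 1.42). Their summed level nevertheless went the other way, with 1234 and 1048 CPM in Ezh2 f/f and 805 and 763 CPM in Ezh2 cKO.

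Cortical interneuron genes, the list nearest to Vip, had 7 of 20 higher and 8 lower (median -0.13). The neuropeptide gene Cck had 822 and 708 against 3588 and 3299 reads, whereas Dlx1, Dlx2, Dlx5 and Dlx6, which act early in these cells, were lower. Vascular, meningeal and blood genes had 9 of 18 higher and 3, Col1a2, Pdgfrb and Slc6a13, lower (median 0.19). Without replicate 1 of Ezh2 cKO the number higher was 5, and the number lower was 1 without replicate 2 of Ezh2 cKO and 5 without replicate 2 of Ezh2 f/f.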
